A study of Mus musculus with 6 samples.

Results

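Desaturases and elongases set the length and the number of double bonds of the fatty acids from which brain membranes and myelin are built. The 9 genes described here are Fasn, the stearoyl-CoA desaturases Scd1, Scd2 and Scd3, the front-end desaturases Fads1 and Fads2, and the elongases Elovl1, Elovl5 and Elovl6, out of 13582 gene rows in the table. They were found by gene symbol, and each had 1 row and entered the fit over all genes. Scd3 was chosen by its lower value in resveratrol in these same libraries, and its relatives were set beside it with those results known. The contrast between treatments is therefore a description for all 9 genes, with no test of its own.

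The libraries were made from the depleted total RNA (without ribosomal RNA) of 6 right cortices, each from a C57BL/6 mouse sacrificed when 10 weeks old. Of these, 3 mice had 1 intraperitoneal injection of vehicle and 3 had 1 of resveratrol at 10 mg/kg, 2 weeks before. Resveratrol is a plant polyphenol, and the series concerns the long-term tolerance to ischemia that such preconditioning gives. The dose field reads 10 mg/kg for the vehicle mice too, and their treatment text was read as vehicle alone. In a piece of whole cortex, fewer cells of a type and less RNA per cell cannot be told apart.

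Fasn, the cytosolic fatty acid synthase, joins acetyl and malonyl units into palmitate, a saturated fatty acid. Elovl6 lengthens palmitate to stearate, and the enzymes of Scd1 and Scd2 place a first double bond in these chains to give palmitoleate and oleate. Fads2 and Fads1 place further double bonds in dietary essential fatty acids, with Elovl5 lengthening the chain between those steps, on the way to arachidonic and docosahexaenoic acid. Elovl1 makes very long saturated and monounsaturated chains for sphingolipids. Fasn, Scd1, Scd2, Fads1, Fads2 and Elovl6 are known targets of the SREBP transcription factors, whose activity responds to sterols and insulin. In the mouse, Scd2 is known as the main stearoyl-CoA desaturase of brain and Scd1 as that of liver and fat. Scd3 is known as a member of this family in skin and the Harderian gland.

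The Scd genes lie side by side, and their transcripts are alike, which bears on how reads could be assigned to Scd3. In GENCODE M21 (GRCm38) Scd3 is on chromosome 19 from 44203269 to 44244016 on the plus strand, Scd2 from 44293674 to 44306864 on the plus strand and Scd1 from 44394455 to 44407879 on the minus strand. Over aligned coding bases Scd3 was 91.5% identical to Scd1, 88.3% to Scd2 and 84.6% to Scd4. Its longest unbroken identical coding run was 185 bases with Scd1 and 125 bases with Scd2. Of the 3499 different 50-base words in the Scd3 transcripts, 6.54% also occur on the same strand in transcripts of other genes, 4.77% in Scd1 and 3.89% in Scd2. The corresponding shares of shared words were 4.56% for Scd1, 3.97% for Scd2 and 0.152% for Fads2, and they were 0 for Fasn, Fads1, Elovl1 and Elovl5. Elovl6 shared 3.98% of its words, with 191 other genes on either strand. A transcript on the opposite strand also overlaps Scd3. Whether strand was used in counting, how long the reads were and how reads with several matches were handled is not given here, so the level of Scd3 is uncertain to that extent.

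A stretch of 90 coding bases shows where the paralogs could not be distinguished. It covers coding bases 535 to 624 of Scd3, 523 to 612 of Scd1 and 532 to 621 of Scd2, counted from the first base of the start codon, and is printed 5′ to 3′. It had 0 differences among the 3 genes.
Scd1, Scd2 and Scd3: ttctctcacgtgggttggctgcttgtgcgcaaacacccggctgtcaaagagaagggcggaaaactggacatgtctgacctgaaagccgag

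The window of the same length in which the paralogs differ most from Scd3 shows the opposite case. It covers coding bases 304 to 393 of Scd3, 292 to 381 of Scd1 and 301 to 390 of Scd2. Capitals mark bases that differ from Scd3, 20 of them in Scd1 and 18 in Scd2.
Scd3: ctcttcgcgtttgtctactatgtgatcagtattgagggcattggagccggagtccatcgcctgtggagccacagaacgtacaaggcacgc
Scd1: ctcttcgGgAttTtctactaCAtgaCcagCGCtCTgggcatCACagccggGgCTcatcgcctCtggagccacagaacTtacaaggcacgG
Scd2: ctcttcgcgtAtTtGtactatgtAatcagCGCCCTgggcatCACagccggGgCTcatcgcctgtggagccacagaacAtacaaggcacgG

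Promoters of 250 bases before and 50 bases after the start site were taken from RefSeq (GRCm38.p6), which matched 6 of the 9 genes. Those of Scd3, the gene chosen, and Fasn, an SREBP target, are shown. Capitals mark CCAAT (the core of the NF-Y box), GGGCGG (an Sp1 motif), TATAAA (the TATA box) and CACGTG (an E-box). Each was searched on both strands, and overlapping matches were counted. Fasn, at chr11:120824498-120824797 on the minus strand, held 3 matches to CCAAT and 0 to the other 3 motifs. Scd3, at chr19:44203038-44203337 on the plus strand, held 0 matches to any of the 4. So did Elovl6, named above as an SREBP target too, and Fads2, another, held 1 match to GGGCGG and 0 to the other 3. Among 32851 promoters of this length, 37.4% held CCAAT, 35.7% GGGCGG, 13.6% TATAAA and 7.15% CACGTG.
Fasn: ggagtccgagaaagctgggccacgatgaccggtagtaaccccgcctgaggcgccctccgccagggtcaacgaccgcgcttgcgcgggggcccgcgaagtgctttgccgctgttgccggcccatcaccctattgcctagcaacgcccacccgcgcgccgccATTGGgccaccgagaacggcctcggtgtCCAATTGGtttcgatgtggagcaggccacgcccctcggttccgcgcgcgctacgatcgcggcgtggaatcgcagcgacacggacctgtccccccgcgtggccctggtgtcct
Scd3: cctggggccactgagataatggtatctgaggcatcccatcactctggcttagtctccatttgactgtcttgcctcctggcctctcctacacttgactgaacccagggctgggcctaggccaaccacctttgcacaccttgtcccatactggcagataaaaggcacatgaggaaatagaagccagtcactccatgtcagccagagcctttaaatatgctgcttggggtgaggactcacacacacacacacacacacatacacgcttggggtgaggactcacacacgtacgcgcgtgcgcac

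The libraries differed from each other in ways that the treatment does not give. The listed FPKM (fragments scaled by transcript length and by the mapped fragments of the library) summed to 351731 to 397876 per library, and Pearson's r between libraries across genes was 0.975 to 0.990. A principal component with 43.3% of the variance set vehicle 1 and 2 (-16.5 and -25.7) apart from the other 4 libraries (1.45 to 18.7). Across genes, the Spearman correlation of the deviation from the gene mean with transcript length was 0.318 in vehicle 1, 0.503 in vehicle 2, -0.525 in vehicle 3 and -0.327 to -0.00858 in resveratrol. With GC content it was -0.363, 0.036 and -0.0146 in vehicle 1, 2 and 3. In resveratrol 1, 2 and 3 the correlation with GC content was -0.465, 0.241 and 0.586, so resveratrol libraries were skewed too, in opposite directions. Summed markers overlapped between groups for neurons (2554 to 2753 FPKM in vehicle and 2515 to 2946 in resveratrol), microglia (135 to 143 and 131 to 140), endothelial cells (79.0 to 104 and 69.2 to 84.8) and choroid plexus (15.5 to 112 and 46.7 to 453). Sequencing depth is unknown, because low values did not lie on steps of whole reads. Values are therefore also given without both vehicle 1 and 2. This was decided after seeing the data, and vehicle 3, then the lone vehicle library, is assumed to vary like the resveratrol group.

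FPKM is scaled by transcript length, so the levels of the genes can be set beside each other. Scd2 was highest, at 228 ± 53.1 FPKM (SD over all 6 libraries), above 98.6% of listed genes. Its lowest library (170) lay above the highest library of Scd1 (56.5). Scd1 (44.9 ± 6.13 FPKM), Fads1 (42.8 ± 10.2) and Fads2 (42.1 ± 5.49) followed and did not differ from each other beyond their spread. Elovl5 stood at 31.3 ± 2.53 FPKM, Fasn at 21.2 ± 6.41 and Elovl6 at 16.7 ± 1.17, with Fasn overlapping both neighbours. Scd3 (7.76 ± 3.49 FPKM) and Elovl1 (4.71 ± 0.436) were the lowest, and their ranges overlapped. Scd2 thus made up 77.3% to 82.4% of the summed FPKM of the 3 Scd genes in each library, and Scd3 1.16% to 4.04%.

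**Figure D1:**
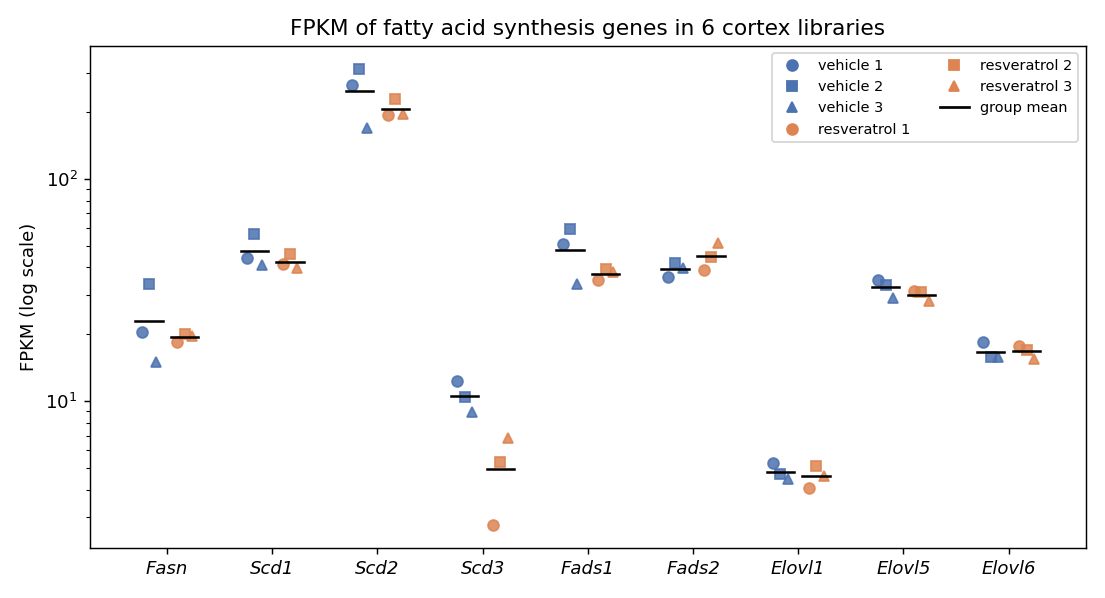
FPKM of the 9 genes on a log axis, with 1 point per library (blue vehicle, orange resveratrol; circle, square and triangle for libraries 1, 2 and 3) and a black line at each group mean. Scd3 is the gene whose groups do not overlap, at 8.89 to 12.3 FPKM in vehicle and 2.77 to 6.82 in resveratrol, while vehicle 2 is the top point of Fasn, Scd1, Scd2 and Fads1.

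The comparison of resveratrol with vehicle asks what still differs in the cortex 2 weeks after the injection. Scd3 was the gene with the largest difference of the 9. Its FPKM was 12.3, 10.5 and 8.89 in vehicle libraries 1, 2 and 3 and 2.77, 5.33 and 6.82 in resveratrol libraries 1, 2 and 3. Every resveratrol library lay below every vehicle library, and resveratrol 1 was the lowest of all. The group means were 10.5 ± 1.70 and 4.97 ± 2.05 FPKM (SD, n = 3 each), a 2.12-fold lower mean in resveratrol. On the log2(FPKM + 0.5) scale the difference was -1.08 ± 0.26 (SE from limma), rank 6 from the lowest of 13574 genes. These are the values by which Scd3 was chosen.

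With limma and Benjamini-Hochberg adjustment over 13574 genes, 0 of the 9 genes passed 0.05, and their smallest adjusted p was 0.987. Over all genes a single row, named for both Eif3j1 and Eif3j2, passed (0.00737% of genes tested). At an unadjusted p under 0.05 stood 1 of the 9 genes, Scd3, against 329 of the 13574 genes tested. In the authors' deposited table, Scd3 had a log2 fold change of -1.08, a p-value of 5e-05 and a q-value of 0.0115. That p-value was the smallest listed for any row, and 59 rows, Scd3 among them, held that q-value. That table lists 101 rows with q under 0.05 (0.744% of its rows), 86 lower and 15 higher in resveratrol, 1 of the 9 genes among them. Nonoverlapping groups with lower values in resveratrol were found for 1 of the 9 genes (Scd3) and for 2.0% of all genes tested. The reverse was found for 0 of the 9 and for 4.28% of all. In the authors' deposited table Fads1 had a q-value of 0.426 and Scd2 of 0.886. Since the contrast chose Scd3, nothing is read from these counts.

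Without 1 library at a time, the log2 difference of Scd3 ranged from -1.33 (without resveratrol 3) to -0.75 (without resveratrol 1). With vehicle 1 and 2 left out it was -0.86 ± 0.38 (SE), and after correction of each library for transcript length and GC content it was -1.06 ± 0.26.

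Measured genes beside it on the chromosome had smaller differences. Since Scd3 was chosen by its fall, a smaller difference in a neighbour is no separate result. Pkd2l1, 10827 bases away, and the overlapping transcript on the opposite strand had no row. Bloc1s2, a subunit of lysosome-related organelle complexes whose gene lies 56823 bases from Scd3, differed by 0.12 ± 0.15 (SE) on the log2 scale. Chuk, a kinase of NF-kB signalling, differed by -0.01 ± 0.12, Cwf19l1 by 0.09 ± 0.12 and Erlin1 by -0.14 ± 0.13. Scd2, 49658 bases away, differed by -0.23 ± 0.20.

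Set against its paralogs in the same library, Scd3 was lower relative to Scd1 without overlap, and relative to Scd2 the groups overlapped. It amounted to 27.7%, 18.5% and 21.7% of the Scd1 FPKM in vehicle 1, 2 and 3, and to 6.68%, 11.6% and 17.1% in resveratrol 1, 2 and 3. These groups did not overlap, although vehicle 2 and resveratrol 3 lay close. Against Scd2 it amounted to 4.65%, 3.34% and 5.23% in vehicle libraries and to 1.42%, 2.34% and 3.48% in resveratrol libraries. Here resveratrol 3 lay above vehicle 2.

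**Figure D2:**
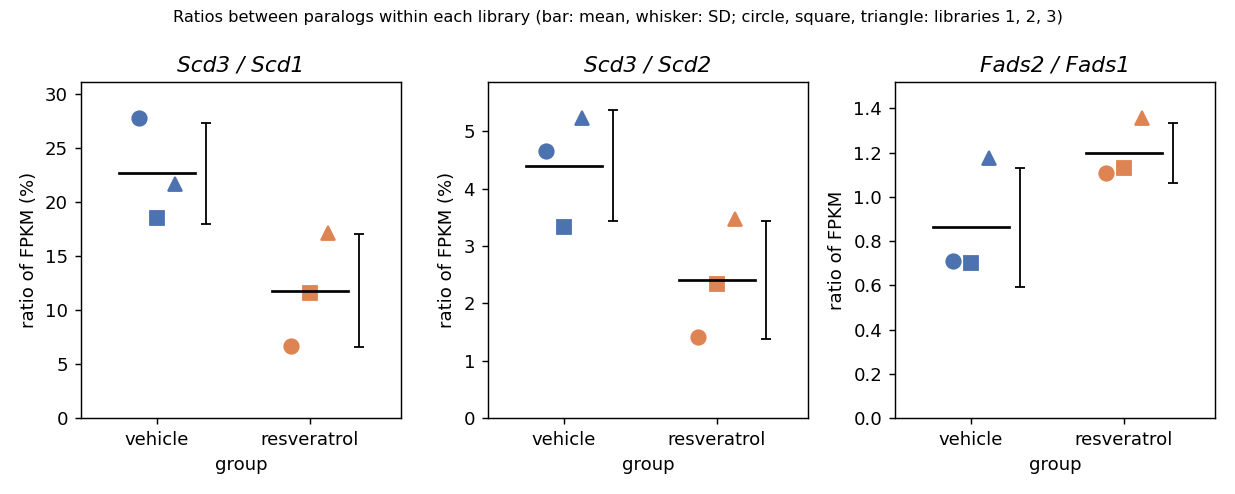
Ratio of Scd3 to Scd1 and of Scd3 to Scd2 (percent of FPKM) and of Fads2 to Fads1 (ratio of FPKM) in each library, with the group mean as a bar and the SD as a whisker (n = 3 each). Scd3 against Scd1 does not overlap between groups (18.5% to 27.7% and 6.68% to 17.1%), whereas Scd3 against Scd2 overlaps, and Fads2 over Fads1 is low in vehicle 1 and 2 alone.

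Scd1 and Scd2 were spread most within the vehicle group. Scd2 had 264, 314 and 170 FPKM in vehicle 1, 2 and 3 and 195, 228 and 196 FPKM in resveratrol 1, 2 and 3. Vehicle held both the highest and the lowest library. The log2 difference was -0.23 ± 0.20 (SE), and it turned to 0.27 ± 0.15 with vehicle 1 and 2 left out. Scd1 had 44.3, 56.5 and 41.01 FPKM in vehicle libraries and 41.5, 46.1 and 39.8 in resveratrol libraries. Its vehicle 2 value stood above the rest, and its log2 difference was -0.14 ± 0.13 (SE), or 0.05 ± 0.14 with vehicle 1 and 2 left out. The summed FPKM of the 3 Scd genes averaged 307 ± 81.1 among vehicle libraries and 254 ± 22.3 among resveratrol libraries (SD, n = 3 each), with overlapping groups.

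Fasn followed the same order of libraries. It had 20.4, 33.6 and 14.9 FPKM in vehicle 1, 2 and 3 and 18.4, 20.1 and 19.7 FPKM in resveratrol 1, 2 and 3. The resveratrol libraries stood within the wide vehicle range. The log2 difference was -0.16 ± 0.24 (SE), it became 0.15 without vehicle 2 alone, and it became 0.37 ± 0.14 with vehicle 1 and 2 left out.

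The front-end desaturases, whose genes are neighbours on chromosome 19, differed in direction. Fads1, the delta-5 desaturase, had 50.8, 59.5 and 33.8 FPKM in vehicle libraries 1, 2 and 3 and 35.0, 39.5 and 38.1 in resveratrol libraries 1, 2 and 3. Again vehicle 1 and 2 were high, and vehicle 3 was the lowest of all 6. Its log2 difference was -0.32 ± 0.18 (SE) and turned to 0.15 ± 0.13 with vehicle 1 and 2 left out. Fads2, the delta-6 desaturase, had 36.1, 41.7 and 39.7 FPKM in vehicle libraries and 38.8, 44.7 and 51.6 in resveratrol libraries. Resveratrol 3 was the highest and the groups overlapped, with a log2 difference of 0.19 ± 0.12 (SE), and 0.17 ± 0.17 with vehicle 1 and 2 left out. The ratio of Fads2 to Fads1 was 0.711, 0.701 and 1.17 in vehicle libraries and 1.11, 1.13 and 1.36 in resveratrol libraries. Vehicle 3 stood with the resveratrol libraries.

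Among the genes described here, the elongases Elovl1, Elovl5 and Elovl6 varied least. Their coefficients of variation over all 6 libraries were 9.24% for Elovl1, 8.06% for Elovl5 and 6.99% for Elovl6, against 44.9% for Scd3 and 13.03% to 30.2% for the other 5 genes. Elovl1 had 5.27, 4.71 and 4.48 FPKM in vehicle libraries and 4.07, 5.13 and 4.63 in resveratrol libraries. Elovl5 had 35.0, 33.3 and 29.2 FPKM in vehicle libraries and 31.4, 30.8 and 28.2 in resveratrol libraries. Elovl6 had 18.4, 15.8 and 15.8 FPKM in vehicle libraries and 17.6, 17.05 and 15.5 in resveratrol libraries. The groups overlapped in all 3 genes, with log2 differences of -0.06 ± 0.13, -0.10 ± 0.11 and 0.01 ± 0.11 (SE).

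Over the 9 genes, 7 were lower and 2 higher in resveratrol, with a median log2 difference of -0.14, beside 0.02 over all genes tested, of which 43.9% were lower. The median was 0.08 with vehicle 1 and 2 left out. Averaged over Fasn, Scd1, Scd2 and Fads1, the deviation from each gene's mean on the log2 scale was 0.13, 0.51 and -0.31 in vehicle 1, 2 and 3. It was -0.18, -0.01 and -0.13 in resveratrol 1, 2 and 3. The lowest and the highest library were thus both vehicle. Scd3 deviated by 0.32 in vehicle 3, above its own mean, and by -1.20 in resveratrol 1. Since Scd3 was chosen by its lower value in resveratrol, its place above its mean in vehicle is no separate result. Within the groups its lowest libraries were vehicle 3 and resveratrol 1, as in that average, while its highest vehicle library was vehicle 1.

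**Figure D3:**
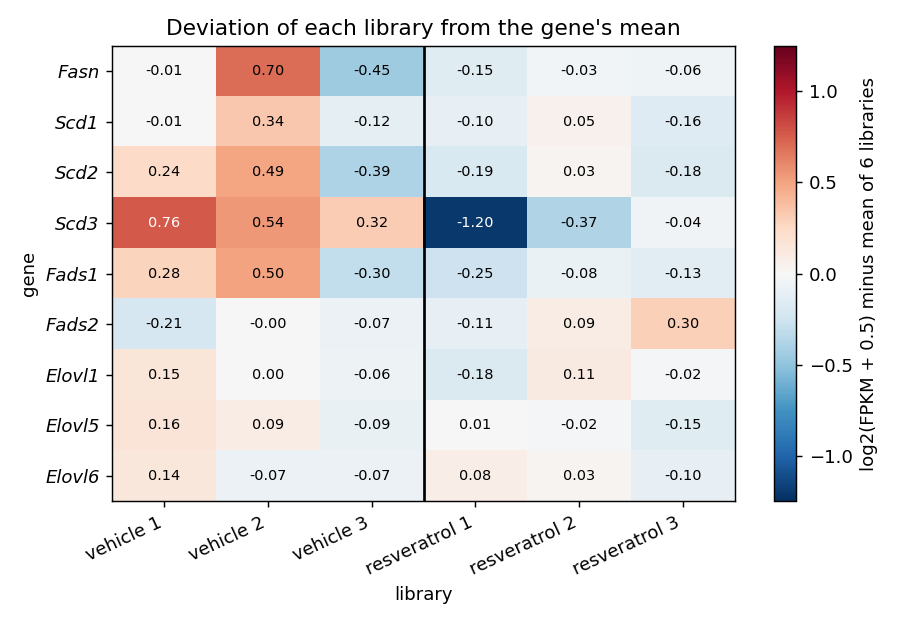
Deviation of each library from the gene's mean over all 6 libraries, in log2(FPKM + 0.5) units, for the 9 genes (rows) and 6 libraries (columns; the black line parts the groups). Vehicle 2 is high and vehicle 3 low for Fasn, Scd2 and Fads1 (0.70 and -0.45 for Fasn). Scd3, chosen by this contrast, is above its mean in all 3 vehicle libraries and below it in all 3 resveratrol libraries.

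Transcript length and glial markers were set beside these vehicle differences. The longest coding transcripts of Fasn, Scd2 and Scd1 have 10050, 5455 and 4832 bases and those of Fads1 and Scd3 3460 and 3489. After the length and GC correction the log2 differences of resveratrol minus vehicle were -0.12 for Fasn, -0.17 for Scd2, -0.09 for Scd1 and -0.32 for Fads1. These compare the groups and do not measure the spread among the vehicle libraries. The 7 astrocyte markers (7 of 7 listed) summed to 817 to 1097 FPKM in vehicle, highest in vehicle 2 and lowest in vehicle 3, and to 862 to 882 in resveratrol. Slc1a2, a glutamate transporter, carried that order, with 493, 584 and 270 FPKM in vehicle 1, 2 and 3. The other 6 astrocyte markers summed to 539, 512 and 547 FPKM, lowest in vehicle 2 and highest in vehicle 3. The 5 markers of oligodendrocyte precursors (5 of 5) summed to 22.1 to 29.8 FPKM in vehicle and 22.2 to 25.9 in resveratrol, with the same highest and lowest vehicle library. Markers of mature oligodendrocytes (10 of 10) summed to 1602, 1511 and 1590 FPKM in vehicle 1, 2 and 3, lowest in vehicle 2, and to 1286 to 1516 in resveratrol, with Mbp at 730 ± 44.0 and 647 ± 51.4 FPKM (SD, n = 3 each). None of these 22 markers was at the floor of the table, 0.01 FPKM. Their part in the levels of the 9 genes was not tested.

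Beside Scd3, markers of ependymal cells and a collagen gene had lower mean values in resveratrol, though none of them passed the limma threshold (adjusted p = 0.987 for each). The 5 ependymal markers (5 of 5 listed) summed to 12.2 to 13.3 FPKM in vehicle and 8.12 to 9.34 in resveratrol, without overlap. Taken singly, 3 of the 5 did not overlap between groups, beside 2.0% of all genes tested that were lower without overlap. Foxj1 (log2 difference -0.13 ± 0.17, SE) and Dynlrb2 (-0.21 ± 0.17) did overlap. Foxj1 is named although the naming rule given below does not select it. Of meningeal fibroblast markers (5 of 5), which summed to 12.9 to 14.7 FPKM in vehicle and 11.1 to 13.2 in resveratrol, Col1a1 had 1.14 ± 0.131 and 0.507 ± 0.181 FPKM (SD, n = 3 each) without overlap. Dcn, the most abundant of them, had 7.45 ± 0.863 and 7.47 ± 0.554 FPKM. Of the 5 meningeal markers 3 were lower and 2 higher in resveratrol, and Col1a1 alone did not overlap. Of 7 skin and sebaceous gland markers, 1 had a row, Krt10, a keratin of the upper epidermis, at 2.47 ± 0.879 and 2.25 ± 0.759 FPKM. Of 6 adipocyte markers, 0 had a row. The part of these cells in the level of Scd3 was not tested.

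The genes most like Scd3 across the 6 libraries were Bcl2l11, Tmem176a, Trim34a, Sbsn and Ly6c2, with Pearson's r of 0.98, 0.97, 0.96, 0.95 and 0.95 on the log2 scale. They lead the 12777 genes whose mean reached 1 FPKM, and 2 predicted gene models ranked among them were not named. With 6 points and so many genes these values are a description. The ranking used both groups, so the contrast that chose Scd3 is part of it. Lower means of these genes in resveratrol are therefore no separate result. Bcl2l11, which encodes the cell death protein Bim, had 1.38 ± 0.0846 FPKM in vehicle libraries and 1.15 ± 0.13 in resveratrol libraries (SD, n = 3 each). Sbsn, known as a secreted protein of the epidermis, had 4.07 ± 0.506 and 2.91 ± 0.794 FPKM. Ly6c2, a surface protein of monocytes, had 11.2 ± 2.48 and 5.10 ± 2.71 FPKM.

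In the next 3 paragraphs each ± after a log2 difference is an SE from limma, and each ± after an FPKM is an SD with n = 3. The wider pathway was described with 10 lists of 110 genes, of which 102 were tested. In limma 0 passed in either direction (smallest adjusted p = 0.987). An unadjusted limma p under 0.05 was found for 1 of the 102, beside 329 of all 13574 genes tested. Of the 102 genes 66 (64.7%) were higher in resveratrol, beside 56.1% of all genes, with a median log2 difference of 0.05 beside 0.02. Groups without overlap were found for 4 genes on the higher side (3.92%) and 2 on the lower side (1.96%), near the shares over all genes given above. Of these, Sptlc1 and Lpcat2 are named after their values were seen.

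Genes that make and control the substrates showed small differences. Acly, which makes cytosolic acetyl-CoA from citrate, had 45.9, 43.9 and 43.2 FPKM in vehicle libraries and 47.3, 47.8 and 50.02 in resveratrol libraries. The groups did not overlap, and the log2 difference was 0.12 ± 0.09 (SE). Acss2, which makes acetyl-CoA from acetate, differed by 0.10 ± 0.10 and Mid1ip1, an activator of acetyl-CoA carboxylase, by 0.07 ± 0.12. In this list of 8 genes 7 were measured, 5 of them higher and 2 lower. Of 16 genes of transcriptional control 15 were measured, 9 higher and 6 lower. Srebf2, the sterol-regulated SREBP gene, had 24.0 ± 6.13 FPKM in vehicle libraries and 20.5 ± 1.78 in resveratrol libraries (SD, n = 3 each). Its highest library was vehicle 2 (30.7) and its lowest vehicle 3 (18.7). Insig1, which holds SREBP in the endoplasmic reticulum, had 38.8 ± 6.64 and 39.1 ± 3.99 FPKM, and in it vehicle 3 was the highest (46.4). The nuclear receptors Nr1h2 and Rxrb differed by 0.23 ± 0.13 and 0.21 ± 0.14 (SE).

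The other desaturases and elongases were measured for 7 of 9 listed genes, 5 higher and 2 lower. Elovl2, which lengthens polyunsaturated chains after Elovl5, had 5.04, 4.93 and 3.97 FPKM in vehicle libraries and 3.36, 4.56 and 3.43 in resveratrol libraries, with overlap and a log2 difference of -0.27 ± 0.16 (SE). Degs2 and Degs1, desaturases of sphingolipids, differed by 0.36 ± 0.18 and 0.05 ± 0.11, and Elovl4, an elongase of very long chains, by 0.08 ± 0.14. The enzymes that complete each round of elongation were measured for 6 of 6 genes, 4 higher and 2 lower. Among them Tecr, the final reductase, stood at 170 ± 17.9 and 203 ± 26.8 FPKM (0.25 ± 0.14), Hacd3, a dehydratase, at 85.04 ± 6.72 and 85.03 ± 2.43, and Hacd4 differed by -0.27 ± 0.18. Electron carriers that serve the desaturases were measured for 5 of 6 genes, 4 higher and 1 lower. Cyb5b, a cytochrome b5 of the outer mitochondrial membrane, had 51.2 ± 0.674 and 49.2 ± 0.177 FPKM without overlap (-0.06 ± 0.09). Cyb5a, the microsomal form, differed by 0.05 ± 0.11, and the reductases Cyb5r3 and Cyb5r4 by 0.17 ± 0.14 and 0.15 ± 0.12.

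The lists of fatty acid use held no gene past the limma threshold. Of 12 genes of fatty acid activation and transport 10 were higher and 2 lower. Fabp3, a fatty acid binding protein, had 72.1 ± 21.2 and 92.2 ± 10.2 FPKM (0.38 ± 0.19 SE), Dbi, which binds acyl-CoA, differed by 0.08 ± 0.13 and Slc27a4 by 0.16 ± 0.13. Of 21 genes of glycerolipid acylation 19 were measured, 12 higher and 7 lower. Agpat3 and Agpat1, acyltransferases of phosphatidic acid synthesis, differed by 0.06 ± 0.10 and 0.20 ± 0.14, and Mboat7 and Mboat1, of phospholipid remodelling, by -0.22 ± 0.13 and -0.34 ± 0.20. Lpcat2 had 4.41 ± 0.379 and 3.83 ± 0.126 FPKM without overlap. Of 10 genes of very long chain sphingolipid synthesis 5 were higher and 5 lower. Sptlc1 and Sptlc2, subunits of serine palmitoyltransferase, both differed by 0.16 ± 0.11 without overlap of the groups. Fa2h, which hydroxylates the fatty acids of myelin lipids, differed by -0.32 ± 0.20, Cers2 by -0.13 ± 0.12 and Ugt8a by -0.01 ± 0.13. Of 16 genes of fatty acid oxidation 9 were higher and 7 lower. Acadvl differed by 0.19 ± 0.13, Hadh by -0.15 ± 0.12 and Hadhb by -0.01 ± 0.13. Of 6 genes of mitochondrial fatty acid synthesis 5 were measured, 3 higher and 2 lower. Ndufab1, its acyl carrier and a subunit of complex I, had 37.1 ± 9.01 and 47.9 ± 4.97 FPKM (0.39 ± 0.16), Mecr differed by 0.16 ± 0.13 and Cbr4 by -0.13 ± 0.11.

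Across the settings tried, the log2 differences of Scd3 and Fads2 kept their sign. Scd3 was chosen by its fall and its groups do not overlap, so leaving out libraries could not turn its sign. Scd1, Scd2 and Fads1 turned sign in 1 of 17 alternatives each and Fasn in 2. For Scd2 and Fads1 it was the setting without vehicle 1 and 2, in which both genes are high. Under the 17 alternatives the log2 difference of Scd3 lay between -1.33 and -0.75 and that of Fads2 between 0.09 and 0.29. That of Scd2 lay between -0.48 and 0.27 and that of Fads1 between -0.55 and 0.15.

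**Figure D4:**
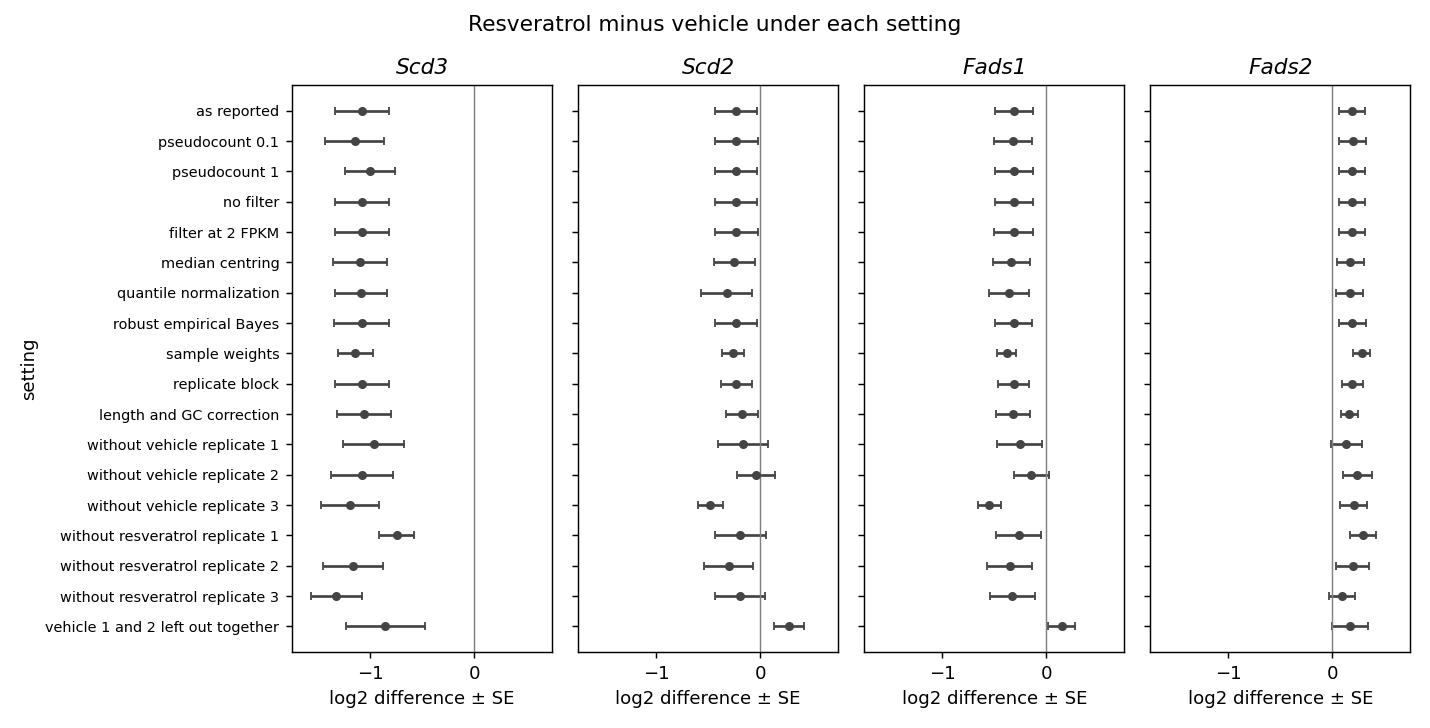
Log2 difference of resveratrol minus vehicle with its SE (whiskers) for Scd3, Scd2, Fads1 and Fads2, as reported and under each of 17 alternatives (rows). Scd3, chosen by its fall, stays below 0 in every row (-1.33 to -0.75) and Fads2 above it (0.09 to 0.29). Scd2 and Fads1 turn positive only in the row with vehicle 1 and 2 left out (0.27 and 0.15).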

How the data were processed

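RNA was sequenced from 6 libraries, grouped by the sample titles, 3 per group. The authors deposited FPKM per library and gene, with log2 group values and, from their own comparison, a log2 fold change, p-value and q-value, per the file headers. STAR, Cufflinks, Cuffdiff and the build GRCm38 are named in the submitters' processing notes, without versions or roles; their annotation and gene filter are not given here. Of 13582 rows, 23 have names turned into dates and 2 have a failed value and were not tested; 35 values stand at a floor of 0.01. Only 15.2% of matched rows have a locus that overlaps their namesake gene in GRCm38, so coordinates come from GENCODE M21.

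FPKM is not a count, so limma (version 3.58.1, R 4.3.3) was run on log2(FPKM + 0.5) over the 13574 genes whose mean reached 0.5 FPKM, with an intensity trend. P-values are two-sided, adjusted by Benjamini-Hochberg, threshold 0.05. Fold changes on this scale understate those of low genes. Depth is unknown: at the best step, 26.6% to 29.0% of low, length-scaled values lay within 0.1 of a whole number. The members and lists were chosen with earlier results of these data known. The fit was tested on simulated data. Named were the 9 genes, up to 2 genes of smallest p and 2 of highest level per pathway list, up to 2 of highest level per cell type list, measured meningeal, adipocyte and skin markers (not all are printed), and the 5 genes most like Scd3. Older symbols were matched through RefSeq. Alternatives were other pseudocounts, filters, scalings, weights, the replicate block, a length and GC correction and left-out libraries. A gene that the naming rule selects is not reported here.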

Additional observations from a re-analysis of the deposited data

How the results depend on the processing

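The count of genes past the limma threshold, 1, was also found with other pseudocounts, filters, centring, quantile normalization, robust empirical Bayes, a threshold of 0.1 and the replicate block. It was 1390 with sample weights (gene-by-gene, since the default estimate did not converge). It was 0 with the length and GC correction, which drops the single called row because it has no matched length. Leaving out 1 library gave 1 to 7 genes (7 without vehicle 3, 3 without vehicle 2), and leaving out vehicle 1 and 2, a choice made after seeing the data, gave 3. The median log2 difference of the 9 genes was -0.24 to -0.04 with 1 library left out and 0.077 with vehicle 1 and 2 left out, where the sign turned; it was -0.12 with the length and GC correction. Scd3, chosen by its fall, was lower in resveratrol under all 17 alternatives, with a log2 difference of -1.33 to -0.75. Fasn changed sign in 2 of 17 alternatives, Scd1, Scd2, Fads1 and Elovl5 in 1 each, Elovl1 in 2 and Elovl6 in 7, and Fads2 in 0. Whether the same replicate number in both groups pairs the samples could not be settled. The correlation of deviations of same-numbered libraries was 0.04, 0.15 and 0.18 for numbers 1, 2 and 3. Vehicle 1 correlated best with resveratrol 2 (0.26). Vehicle 2 and vehicle 3 each correlated best with the resveratrol library of the same number. With the replicate block the difference of Scd3 was -1.08 and the count 1. The SE of Scd3 stayed at 0.26, that of Scd2 went from 0.20 to 0.15 and that of Elovl1 from 0.13 to 0.14. With no depth known, counting error could not be given for the low values of Scd3 and Elovl1.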
